A study of Arabidopsis thaliana with 87 samples.

Results

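The transcripts described here are those held on ribosomes in Arabidopsis thaliana seedlings after 2 h of hypoxia, compared with seedlings kept in air in the dark for the same time. The method, TRAP (translating ribosome affinity purification), pulled down ribosomes that carry a FLAG-tagged RPL18 protein and sequenced the polyadenylated RNA bound to them. The groups were 2NS (2 h of darkness in air) and 2HS (2 h of darkness in a sealed chamber flushed with argon), each with 3 libraries. These 6 samples were part of 87 in the series, and 3 further TRAP libraries, 2R, had 2 h of hypoxia followed by 2 h of reoxygenation. Genes on nuclear chromosomes with a mean of at least 1 RPKM (reads per kilobase of gene, scaled to the library's total) over the TRAP columns were kept, which left 16190 genes, 15992 of them protein-coding, of 37899 identifiers.

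All TRAP seedlings were 7 days old, were taken whole, grew in long days on medium with sucrose, carried the p35S:RPL18-FLAG transgene and entered treatment at Zeitgeber time 16, when the light period ended. The cauliflower mosaic virus 35S promoter that drives the tagged protein is active in most plant tissues, so ribosomes of many cell types were pooled. A lower value in such a pool cannot be told apart from fewer cells of a type, from less RNA per cell or from RNA that left the ribosomes. The poly(A)+ and nuclear RNA of the series, used below for comparison, came from another line, pUBQ10:NTF pACT2:BirA, so line and assay cannot be told apart. Whether the labelled replicates were grown separately is not stated, and p-values then measure only the spread between these samples, which may be technical.

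Plants that run out of oxygen cannot respire and fall back on glycolysis and fermentation, in which pyruvate decarboxylase and alcohol dehydrogenase turn pyruvate into ethanol and regenerate NAD+. In Arabidopsis the switch is driven by ERF transcription factors of group VII, which are degraded in air after plant cysteine oxidases have oxidised their N-terminal cysteine and are stable when oxygen is low. Protein synthesis is costly, and under hypoxia many existing messenger RNAs are known to leave polysomes while messages of the low-oxygen response stay on them.

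The deposited table holds 1 mean per group. Its digits allowed the whole reads of each library to be recovered for 12926 of the 16190 genes, and only these could be tested. The other 3264 were mostly abundant, with a median level of 34.64 RPKM over 2NS and 2HS against 4.61 RPKM in the tested genes. Library totals were 2.53, 5.88 and 8.96 M (mega) reads in 2NS and 3.09, 6.76 and 12.4 M in 2HS. The libraries of a group correlated at r = 0.943 to 0.969 in 2NS and 0.922 to 0.935 in 2HS across genes, and libraries of the 2 groups at 0.798 to 0.870. The labels name no batch. Changes below are log2 ratios of RPKM + 1, centred on the median gene, which lay 0.06 lower in 2HS. Such a change understates that of genes near 0 RPKM. "Rose" and "fell" refer only to limma's test, with ± giving its standard error and p-values adjusted by Benjamini and Hochberg at 0.05; for untested genes the authors' means are given without an error.

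The line could be checked at RPL18 itself (AT3G05590). It stood at 3322 RPKM in TRAP RNA of 2NS against 71.3 RPKM in poly(A)+ RNA of the other line, while its relative AT5G27850 stood at 79.1 RPKM in TRAP and 73.4 RPKM in poly(A)+ RNA. Reads of the transgene and of the endogenous gene cannot be told apart. RPL18 was at 1692 RPKM in 2HS and 3488 RPKM in 2R, so the RNA of the tagged protein was itself lower in the hypoxic means. Whether this bears on the recovery of ribosomes was not tested.

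With changes centred on the median gene, which bears on the balance of directions, limma called 1629 genes higher, 12.6% of the 12926 tested, and 1616 lower, 12.5%; without the 2NS library of 5.88 M reads 986 were called lower, and without the one of 8.96 M reads 1008 were. Without centring, 1368 genes were called higher and 2023 lower. A 2-fold difference in the authors' means was reached by 971 of the 16190 genes upward (6.0%) and by 411 downward (2.54%). At least 8-fold, 78 genes were higher, 51 of them untested, and 1 was lower. The 971 genes made up 3.95% of all RPKM in 2NS, 16.1% in 2HS and 5.05% in 2R, values that the choice of these genes fixes in part. RBCS1A, a small subunit of Rubisco, was the most abundant gene in both groups, at 13850 and 8040 RPKM.

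**Figure D1:**
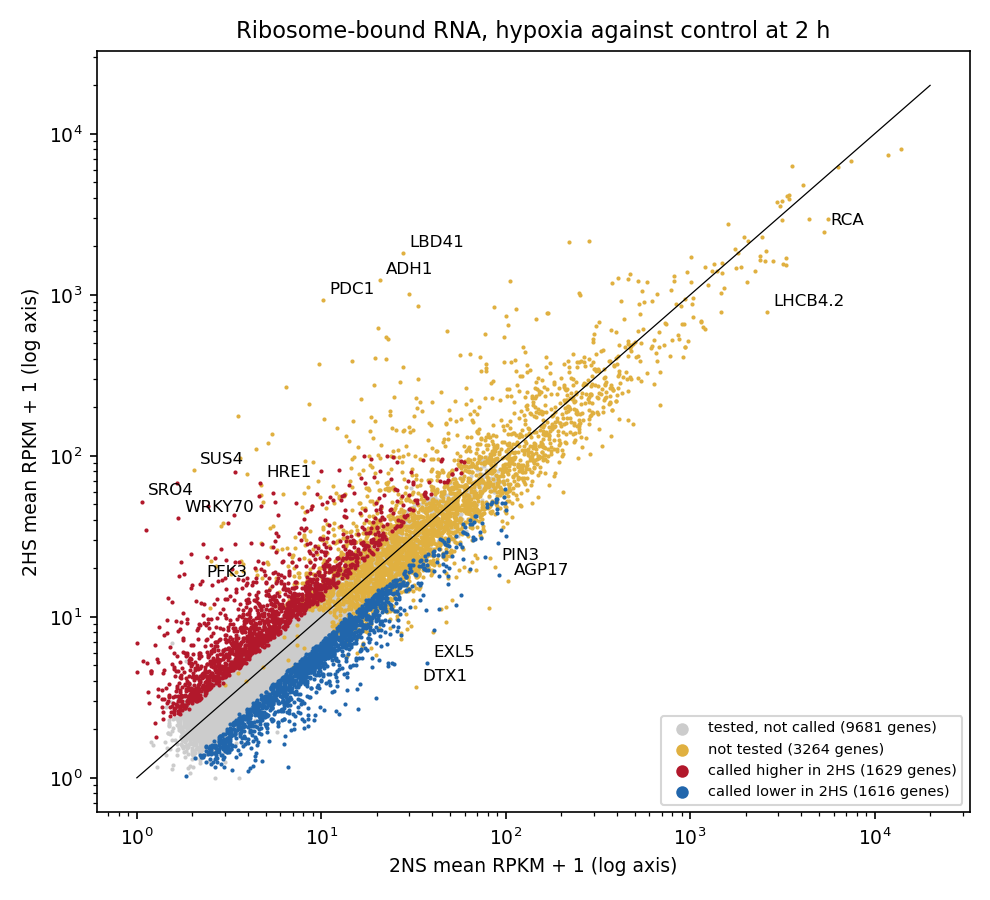
Mean RPKM + 1 of each of 16190 genes in control (2NS, x axis) and hypoxic (2HS, y axis) ribosome-bound RNA, both on log axes, coloured by limma's call. Untested genes lie mostly at high levels, ADH1, PDC1 and LBD41 stand highest above the diagonal among the named genes, and DTX1 and EXL5 farthest below it.

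Fermentation genes were among those that changed most. PDC1, a pyruvate decarboxylase, stood at 9.22 RPKM in 2NS, 925 RPKM in 2HS and 20.3 RPKM in 2R, a change of 6.56 and the largest of all genes in the means. ADH1, alcohol dehydrogenase, went from 19.8 to 1238 RPKM (5.96) and was still at 168.5 RPKM in 2R. PDC2 was 3.90 higher. None of these could be tested. AT4G17260, of the lactate/malate dehydrogenase family, was at 26.0, 16.4 and 18.6 RPKM in the 2NS libraries and at 37.3, 43.8 and 41.5 RPKM in the 2HS libraries. The groups did not overlap, and it rose by 1.05 ± 0.20 (adjusted p = 0.00199). PPDK, pyruvate orthophosphate dikinase, stood at 15.95 and 32.02 RPKM in the means. The aldehyde dehydrogenases ALDH2B4 and ALDH2B7, which act on acetaldehyde, were at -0.04 and -0.02, the latter with an adjusted p of 0.991. Of 8 genes in this list 7 passed the level filter, 2 were tested and 1 was called.

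At the entry of sugar into glycolysis, the sucrose synthases held the genes that were called or 2-fold apart in the means. Among sucrose synthases, which split sucrose without spending ATP, SUS4 stood at 1.03 RPKM in 2NS and 80.7 RPKM in 2HS and SUS1 at 3.40 and 108.5 RPKM, changes of 5.39 and 4.70 that could not be tested. SUS3 was at 1.2, 2.11 and 1.99 RPKM in 2NS and 3.80, 3.85 and 2.79 RPKM in 2HS; it rose by 0.76 ± 0.21 (adjusted p = 0.0181), a call that was lost without the 2NS library of 2.53 M or the 2HS library of 3.09 or 6.76 M reads (adjusted p = 0.0725, 0.0654 and 0.054). SUS5 and SUS6 were at 0.54 and 0.58 in the means without passing (adjusted p = 0.0985 and 0.0575). The hexokinases HXK1 and HXK2, which phosphorylate glucose, were at -0.31 and 0.68, the hexokinase-like HKL1 at -0.71 and the invertase CINV1 at -0.50. HXK1 did not pass (adjusted p = 0.11), and the other three could not be tested.

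Phosphofructokinase commits sugar to glycolysis, and only PFK3 of its 5 tested genes was called. PFK3 was at 1.19, 1.44 and 0.945 RPKM in 2NS, at 13.9, 17.5 and 13.9 RPKM in 2HS, and at 3.01, 1.82 and 2.2 RPKM in 2R. Its 2NS and 2HS libraries lay far apart, with a rise of 2.93 ± 0.18 (adjusted p = 2.79e-07). PFK6 was 2.56 higher in the means, from 2.77 to 20.4 RPKM, untested. PFK1, PFK2, PFK4, PFK5 and PFK7 lay between -0.35 and 0.20. In the lower cytosolic steps FBA6, an aldolase, was 1.54 higher in the means, at 70.5 and 198.7 RPKM, and FBA5 rose by 0.67 ± 0.17 (adjusted p = 0.0126), while the median of the 12 genes was 0.13. Without the 2NS library of 8.96 M reads FBA5 did not pass (adjusted p = 0.0623). ALAAT1, alanine aminotransferase, which makes the alanine that hypoxic plants accumulate, was 3.30 higher in the means, from 23.8 to 232.4 RPKM. ASN1, asparagine synthetase, was 2.11 and GDH2, glutamate dehydrogenase, 1.43 higher. Of 11 genes of alanine, GABA and asparagine metabolism 4 were tested and none called.

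The oxygen-sensing genes split by role. The inducible enzymes PCO1 and PCO2 were 4.67 and 4.72 higher in the means, at 208.4 and 136.0 RPKM in 2HS, whereas PCO3, PCO4 and PCO5 were tested and not called (changes of 0.63, -0.09 and 0.25). Among group VII factors, HRE1 was at 2.48, 2.94 and 5.52 RPKM in 2NS, 81.2, 68.7 and 51.0 RPKM in 2HS and 8.21, 5.06 and 10.2 RPKM in 2R. Every hypoxic library exceeded every other, and HRE1 rose by 3.96 ± 0.27 (adjusted p = 5.65e-07). HRE2 was 3.12 higher in the means, from 18.6 to 163.0 RPKM. RAP2.2, RAP2.12 and RAP2.3, which are made in air too, stood at 0.30, 0.17 and -0.17, all untested. PRT6, the ubiquitin ligase of the N-degron pathway, and BIG, a very large protein linked to the same pathway, were 0.77 and 1.00 higher. The arginyl-transferase genes AT5G05700 (ATE1) and ATE2 were at -0.21 and 0.16 and VRN2, a Polycomb protein that is itself a substrate, at -0.28. Over the list 15 of 16 genes passed the level filter, 7 were tested and HRE1 was called.

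Other regulators of the response all stood higher in the means, 10 of 10 by at least 2-fold, beside 6.0% of all genes. The list was drawn up as factors of the hypoxia response, so its direction is not independent evidence. LBD41, a LOB-domain factor, went from 26.7 to 1817 RPKM (6.10), HRA1, which attenuates group VII activity, was 4.79, DREB2A, a factor of heat and drought, 4.36 and ZAT12, a zinc finger factor, 3.75 higher. ZAT10 rose by 2.45 ± 0.28 (adjusted p = 4.55e-05). CML38, a calmodulin-like protein of stress granules, was 5.70 higher in the means and CML37 rose by 1.81 ± 0.32 (adjusted p = 0.00118). HB1, the haemoglobin that scavenges nitric oxide, went from 113.1 to 816.6 RPKM in the means (2.90), and the other haemoglobin genes GLB3 and HB2 rose by 0.75 ± 0.19 (adjusted p = 0.0108) and 0.59 ± 0.20 (adjusted p = 0.0416). HB2 did not pass without the 2NS library of 5.88 or 8.96 M or the 2HS library of 3.09 or 6.76 M reads (adjusted p = 0.0836 to 0.143).

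A list of hypoxia-responsive proteins of unknown function was chosen because its members are known to respond, so its direction is not independent evidence. At the filter 14 of 14 were at least 2-fold higher in the means, with a median of 4.16 beside 0 for all genes, and 4 of the 5 tested rose. AT4G10265, named a wound-responsive protein, was at 0.599, 0.515 and 0.846 RPKM in 2NS, 62.4, 83.4 and 53.3 RPKM in 2HS and 1.71, 1.04 and 1.19 RPKM in 2R. It rose by 5.39 ± 0.19 (adjusted p = 1.02e-09) on 8 reads in all of 2NS. Its relative AT4G33560 went from 19.4 to 617.6 RPKM in the means. AT1G33055 (5.44), AT3G23170 (5.31), AT5G65207 (5.15, at 1015 RPKM in 2HS), AT4G24110 (4.74), AT4G27450 (4.21), AT1G19530 (4.1), AT2G15880 (3.42) and AT3G03270 (2.25) were higher and untested. AT4G39675, AT5G66985 and AT5G42200 rose by 3.73, 3.70 and 2.62 (adjusted p = 1.00e-06, 5.41e-07 and 4.58e-06), and AT1G05575, at 1.07 in the means, did not pass (adjusted p = 0.0924). AT3G03270 differed from the rest of the group in 2R, where it was at 60.4 RPKM, beside 55.7 RPKM in 2HS and 11.4 RPKM in 2NS.

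SRO4 rose most of all tested genes. This member of a family of PARP-like proteins had 1 read in each of 2 libraries of 2NS and none in the other, and 283, 536 and 863 reads, or 58.2, 50.3 and 44.1 RPKM, in 2HS. The rise was 5.67 ± 0.18 on the scale of RPKM + 1 (adjusted p = 4.62e-10). Its paralog SRO5 was at 0.604, 1.13 and 0.455 RPKM in 2NS and 18.5, 24.2 and 20.2 RPKM in 2HS, a rise of 3.74 ± 0.20 (adjusted p = 5.08e-08). Of the 5 family members at the filter no other was called. RBOHD, the NADPH oxidase of stress signalling, was 4.43 higher in the means, from 18.6 to 404.9 RPKM. RBOHB, at 0.514, 0.884 and 1.19 RPKM in 2NS and 11.2, 8.80 and 6.25 RPKM in 2HS, rose by 2.43 ± 0.24 (adjusted p = 1.66e-05).

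Further large rises were called outside these lists. AT2G29870, an aquaporin-like gene, had 2 reads in all of 2NS and 33.1, 41.8 and 25.5 RPKM in 2HS, a rise of 4.98 ± 0.19 (adjusted p = 2.46e-09). WRKY70, a defence regulator, was at 0.620, 0.711 and 0.700 RPKM in 2NS and 40.3, 46.5 and 33.8 RPKM in 2HS; it rose by 4.67 ± 0.19 (adjusted p = 3.92e-09). AUF2, an F-box protein, was at 2.58, 2.59 and 2.03 RPKM in 2NS and 80.2, 78.9 and 75.2 RPKM in 2HS, with a rise of 4.6 ± 0.18 (adjusted p = 2.69e-09). In none of these did the groups overlap, though they were picked for their large called rises. AT1G72920, a TIR-domain protein, rose by 4.43 ± 0.22 (adjusted p = 3.81e-08) and AT2G17850, of the rhodanese family, by 3.85 ± 0.31 (adjusted p = 3.61e-06). WRKY22 and NAC036 rose by 3.72 and 3.68 (adjusted p = 7.15e-07 and 2.56e-07).

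**Figure D2:**
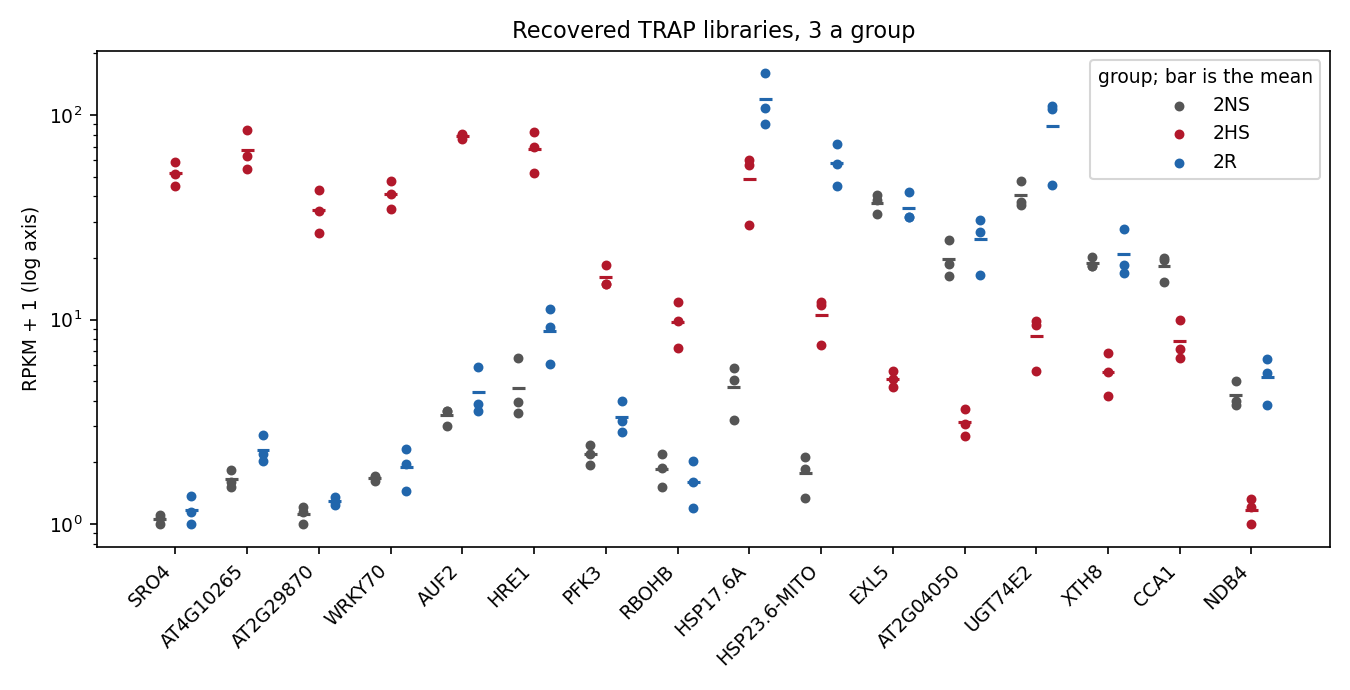
RPKM + 1 (log axis) of 16 called genes in each recovered TRAP library of 2NS, 2HS and 2R, with bars at group means; CCA1 has no 2R values because its reads there could not be resolved. The 2NS and 2HS libraries do not overlap for any of the 16, which were picked among called genes, and HSP17.6A and HSP23.6-MITO are highest in 2R.

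Small heat shock proteins, chaperones that hold unfolding proteins, were all resolved in 2NS and 2HS. Of 14 genes 12 rose, beside 12.6% of all tested genes. HSP17.6A was at 2.24, 4.05 and 4.81 RPKM in 2NS, 56.2, 28.0 and 59.0 RPKM in 2HS and 107, 88.9 and 159 RPKM in 2R. It rose by 3.40 ± 0.30 (adjusted p = 5.78e-06). AT1G59860, another HSP20-like gene, rose by 3.51 ± 0.17 (adjusted p = 3.56e-08) and was at 58.1 RPKM in the mean of 2HS and 29.1 RPKM in that of 2R. ATHSP22.0 had no read in any 2NS library and 21, 22 and 102 reads in 2HS. Its pooled level was at least 37.7-fold higher than the 0.167 RPKM that 3 reads over the 3 2NS libraries would give. The list's median change was 2.57, and near-identical copies make single genes of this family uncertain. Of the large chaperones, HSP101, HSP70 and HSP90.1 were 2.99, 2.49 and 2.35 higher in the means, and MBF1C, a heat stress coactivator, HSP70B and BAG6 rose by 2.37, 1.73 and 1.36 (adjusted p = 4.39e-04, 0.0016 and 2.69e-04). Folding proteins of the endoplasmic reticulum did not share this: 0 of 15 were 2-fold apart, 1 of 5 tested was called, ERDJ3B, which fell by 0.50 (adjusted p = 0.036), and the median was 0.08. ERDJ3B lost its call without 5 of the 6 libraries in turn, the 2HS library of 6.76 M reads excepted (adjusted p up to 0.143).

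Among heat shock factors, 7 of 14 tested genes rose and none fell, beside 12.6% and 12.5% of all tested genes. HSFA8 was at 2.3, 2.14 and 2.11 RPKM in 2NS and 12.7, 13.6 and 11.3 RPKM in 2HS, a rise of 2.15 ± 0.21 (adjusted p = 1.17e-05). HSFA4A, HSFA2 and HSFA7A rose by 1.47, 1.42 and 1.36 (adjusted p = 0.00342, 0.00334 and 1.88e-04). HSFB2A was 2.18 higher in the means.

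Larger families were grouped by their deposited or RefSeq descriptions after their values had been seen, so their counts and medians carry no test. Of 26 tested WRKY factors, regulators of defence, 11 rose and 1 fell. For each family here the background is the 12.6% called higher and 12.5% called lower over all tested genes. WRKY18 was 2.80 higher in the means, and WRKY46 and WRKY38 rose by 3.50 and 2.3. In the ethylene response factor family 12 of 43 tested genes rose and 7 fell, ERF13 rising by 3.04 (adjusted p = 2.92e-07), ERF5 by 2.35, ERF6 by 2.01 and ERF11 by 1.99. NAC factors had 10 of 36 higher and 4 lower, calmodulin and calmodulin-binding proteins 10 of 32 higher and 1 lower, and VQ-motif proteins, partners of WRKY factors, 6 of 13 higher and 1 lower. Leaving out each library in turn gave 3 to 12 lower calls in the ethylene response factor family, 12 of them without the 2HS library of 12.4 M reads, and 6 or 7 higher calls among NAC factors. Cytochrome P450 genes, whose enzymes use molecular oxygen, had 17 of 83 higher and 11 lower, the lower calls near the background share. CYP707A3, which breaks down abscisic acid, was 3.20 higher in the means. Glutathione S-transferases had 5 of 23 higher and none lower, and GSTF8 stood at 168.8 and 772.7 RPKM in the means.

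Hormone genes moved in part. In the jasmonate list 8 of 15 genes were at least 2-fold higher in the means, beside 6.0% of all genes. Of 8 tested 5 rose and none fell, beside 12.6% called higher and 12.5% called lower over all tested genes. The rises were in JAZ5 (1.65, adjusted p = 7.85e-05), JAZ6 (1.06, adjusted p = 0.00258) and JAZ2 (1.05, adjusted p = 1.57e-04), repressors that jasmonate induces, and in the synthesis genes LOX3 (1.35, adjusted p = 0.00184) and AOC1 (1.04, adjusted p = 0.0108). For ethylene, AT2G19590 (ACO1), an enzyme of the last step of synthesis, which itself needs oxygen, was 3.86 higher in the means, from 3.71 to 64.6 RPKM. The receptor gene ETR2 was 2.17 higher in the means, whereas the receptor genes ERS1 and ERS2 fell by 0.93 ± 0.17 (adjusted p = 0.0014) and 0.66 ± 0.22 (adjusted p = 0.0446). ERS2 lost its call without each library except the 2HS library of 12.4 M reads (adjusted p up to 0.195). ACS6, an enzyme of ethylene synthesis, rose by 0.90 ± 0.20 (adjusted p = 0.00635), and the list's median was -0.17.

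Of 17 genes of energy sensing and sugar starvation 4 were at least 2-fold higher in the means, beside 6.0% of all genes, and the median was 0.54. Of 8 tested 2 rose and none fell, beside 12.6% called higher and 12.5% lower over all tested genes. DIN1 (also SEN1) was 2.53 and DIN10, a raffinose synthase, 1.86 higher in the means, and BCAT2, which degrades branched-chain amino acids, rose by 1.03 ± 0.26 (adjusted p = 0.0108), as did BZO2H3, a bZIP factor downstream of the energy sensor SnRK1, by 0.92 ± 0.21 (adjusted p = 0.00609). All 9 ATG8 autophagy genes were above 0, between 0.19 and 0.80, and ATG8D and ATG8B of 8 tested rose by 0.81 and 0.65 (adjusted p = 0.0115 and 0.0251). Leaving out each library in turn gave 1 of 8 ATG8 genes higher, except 3 without the 2HS library of 12.4 M reads. A count of 1 of 8 lies near the background of 12.6%. The energy list had 1 or 2 of 8 higher in these fits. Calls were lost for BCAT2 without the 2NS library of 8.96 M or the 2HS library of 3.09 M reads (adjusted p = 0.0523 and 0.0555) and for ATG8D without the 2NS library of 2.53 M reads (adjusted p = 0.0504). ATG8B lost its call without each library except the 2NS library of 2.53 M and the 2HS library of 12.4 M reads (adjusted p up to 0.0905). In iron uptake BHLH39 was at 2.99, 0.901 and 2.28 RPKM in 2NS, 8.83, 19.4 and 13.2 RPKM in 2HS and 0.641, 0.870 and 0.594 RPKM in 2R, a rise of 2.34 ± 0.28 (adjusted p = 7.85e-05). PYE and BTS, regulators of the iron deficiency response, were 2.69 and 2.24 higher in the means, IRT1, the root iron transporter, rose by 0.81 ± 0.20 (adjusted p = 0.0087), and the ferritin gene FER1, an iron store, was 1.01 lower in the means.

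Histone genes had a median of 0.61, 25 of 29 above 0, with 7 of 14 tested genes called higher and 2 lower (HTA11 and HTA2). Leaving out each library in turn gave 5 to 7 higher and 1 to 2 lower. HTA3, HTA6 and HTA2 each lost their call without 4 of the 6 libraries in turn and AT5G10390 without 2 (adjusted p up to 0.0818, 0.141, 0.0825 and 0.0736). AT2G28720, described as a histone superfamily protein, rose by 1.45 ± 0.18 (adjusted p = 1.09e-04) and HIS4, a histone H4 gene, by 0.75 ± 0.16 (adjusted p = 0.00373), while HTA11, which encodes H2A.Z, fell by 0.88 ± 0.15 (adjusted p = 0.00114). Among 15 cell cycle genes, all tested, 2 rose and 1 fell (KRP1, CYCA1;1 and CDKA1). Over all tested genes 12.6% were called higher and 12.5% lower, so these cell cycle counts lie near or below the background. KRP1, an inhibitor of cyclin-dependent kinases, rose by 1.30 ± 0.19 (adjusted p = 3.17e-04), from 11.3, 8.95 and 8.4 RPKM to 25.5, 29.2 and 18.0 RPKM. The calls of CYCA1;1 and CDKA1 were lost without 4 and 3 of the 6 libraries in turn (adjusted p up to 0.0831 and 0.0569).

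Transcripts of the photosynthetic antenna and of carbon fixation were lower in the means but too abundant to be tested. Of 15 light-harvesting genes 14 were below 0, with a median of -0.73, and their summed share of all RPKM went from 7.27% in 2NS to 4.14% in 2HS and 7.28% in 2R. LHCB4.2 and LHCB3 were 1.68 and 1.23 lower. Rubisco and Calvin cycle genes had a median of -0.61 and a share of 7.89%, 5.40% and 6.37% in 2NS, 2HS and 2R; GAPA-2 was 1.40 and RCA, Rubisco activase, 1.05 lower. In poly(A)+ RNA the medians of the same lists were 0.13 and 0.36, and this difference between assays was not tested because these genes were unresolved. Summed RPKM of protein-coding genes in poly(A)+ RNA was 131545.9 in 2NS and 182458.2 in 2HS. The part of this difference in scale in the poly(A)+ medians was not tested. The photosystem subunits outside the antenna, grouped by description, had a median of 0.06 over 35 genes and held 8.78% and 8.31% of RPKM in 2NS and 2HS. PSAD-1, of photosystem I, stood at 3431 and 4157 RPKM. All 5 mesophyll markers, genes of these groups for the most part, were lower, summing to 21982.4 RPKM in 2NS, 12529.3 in 2HS and 19278.7 in 2R. Their part in the result on the antenna was not tested.

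Markers of both root and shoot tissues were detected in these whole-seedling samples. Summed RPKM in 2NS and 2HS were 57.2 and 65.2 for root endodermis, 20.3 and 21.1 for guard cells, 158.6 and 189.3 for companion cells and phloem, and 82.9 and 98.5 for xylem and stele. Root hair markers summed to 10.8 and 7.4 RPKM, with 3 of 8 at the filter, and none was called. Called markers were MYB36 (1.46, adjusted p = 2.19e-04), SCR (-0.60, adjusted p = 0.0194) and FTIP1 (-0.54, adjusted p = 0.0201); SCR lost its call without 3 and FTIP1 without 5 of the 6 libraries in turn (adjusted p up to 0.0861 and 0.0738). No marker was listed at 0 in either group.

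Among the genes with the largest falls, EXL5, an EXORDIUM-like protein, was at 37.3, 39.8 and 31.8 RPKM in 2NS, 4.61, 4.12 and 3.66 RPKM in 2HS and 30.7, 41.1 and 30.7 RPKM in 2R. It fell by 2.80 ± 0.16 (adjusted p = 1.77e-07). AT2G04050, a MATE efflux carrier, had 136, 237 and 314 reads in 2NS and 12, 32 and 76 reads in 2HS, at means of 18.8 and 2.15 RPKM, and fell by 2.59 ± 0.23 (adjusted p = 6.25e-06). Its relative DTX1 was 3.09 lower in the means, the lowest of all genes, from 31.7 to 2.67 RPKM, and stood at 30.2 RPKM in 2R. AT5G66580, of unknown function, fell by 2.51 ± 0.16 (adjusted p = 4.76e-07), and AT2G23270, a transmembrane protein, by 2.39 ± 0.40 (adjusted p = 9.10e-04). HB30, a zinc finger homeodomain factor, AT5G12050 and ENODL8, an early nodulin-like protein, fell by 2.31, 2.3 and 2.29 (adjusted p = 1.04e-05, 9.62e-06 and 4.58e-06). AT2G18193, AGP17, DND1 (a cyclic nucleotide-gated channel) and AT2G47440 were 2.78, 2.57, 2.29 and 2.27 lower in the means. The 2NS and 2HS libraries did not overlap in any of the 7 tested genes among these, and the other 5 could not be tested. The genes were picked for their large falls, so this separation is not independent evidence. How many of all tested genes separate in this way was not counted.

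Auxin carriers of the PIN family, which export auxin from cells, were among the abundant genes with lower means. PIN3 stood at 86.2, 19.5 and 120.5 RPKM in 2NS, 2HS and 2R, PIN4 at 46.3, 10.6 and 54.1 RPKM and PIN7 at 47.4, 16.3 and 59.7 RPKM, changes of -2.03, -1.97 and -1.43 that could not be tested. The import carriers LAX3 and AUX1 were 1.06 and 1.03 lower in the means, and the auxin response repressors IAA29 and IAA1 fell by 1.17 and 0.89 (adjusted p = 0.00335 and 0.00204), while IAA14 and the synthesis gene YUC8 rose by 0.88 and 0.97 (adjusted p = 7.20e-04 and 0.00384).

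Wall-loosening genes diverged. XTH8 was at 17.3, 19.2 and 17.3 RPKM in 2NS and 3.25, 4.52 and 5.85 RPKM in 2HS and fell by 1.74 ± 0.21 (adjusted p = 7.12e-05); EXPA9, EXPA14, XTH16 and EXPA15 fell by 0.76 to 0.94. XTH16 did not pass without the 2NS library of 5.88 M reads (adjusted p = 0.0571), nor EXPA14 without the 2HS library of 6.76 M reads (adjusted p = 0.0504). EXPA4 and EXPA5 were 1.76 and 1.48 lower in the means. XTH19, XTH22, XTH24 and XTH18 were 2.07, 1.65, 1.63 and 1.62 higher in the means and untested, so this list of 22 genes held 4 that were at least 2-fold up and 4 that were as far down. XTH18, XTH19 and XTH24 have neighbouring gene numbers and are related in sequence, and how reads shared between copies were counted is not given.

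Homeobox factors, grouped by description, had 16 of 44 tested genes lower and 2 higher, beside 12.5% lower over all genes; HB52, HAT2 and HB28 fell by 1.69, 1.46 and 1.39. Arabinogalactan proteins of the wall had 6 of 35 at least 2-fold lower and 2 higher in the means, beside 2.54% and 6.0% of all genes. Of 23 tested, limma called 4 higher and 3 lower, and 2 to 3 higher and 1 to 2 lower without 1 library. AGP18 fell by 1.61 ± 0.16 (adjusted p = 1.70e-05). Pentatricopeptide repeat proteins, which process RNA in organelles, had 35 of 126 tested genes lower and 3 higher, with a median of -0.28, and leucine-rich repeat kinases 18 of 69 lower and 6 higher. Of 131 genes of cytosolic ribosomal proteins 114 passed the level filter, with a median of -0.22 and with 6 of 72 tested lower and 3 higher. Both shares are below the 12.5% called lower and 12.6% called higher over all tested genes. Leaving out each library in turn gave 22 to 27 lower calls among pentatricopeptide repeat proteins, 22 without the 2NS library of 2.53 M reads. It gave 11 to 15 lower calls among homeobox factors and 12 to 19 among leucine-rich repeat kinases. For ribosomal proteins it gave 2 to 9 lower and 0 to 4 higher, with 2 lower without the 2NS library of 8.96 M reads. They held 1.58%, 1.19% and 1.69% of RPKM in 2NS, 2HS and 2R. EIFISO4G1, a scaffold of translation initiation, was 1.11 lower in the means and S6K2, a kinase of the TOR pathway, 1.69 higher; of 19 initiation and elongation genes 3 were tested and none called.

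UGT74E2, a glucosyltransferase induced by hydrogen peroxide, was at 46.7, 36.7 and 35.4 RPKM in 2NS, 4.59, 8.45 and 8.81 RPKM in 2HS and 106, 44.7 and 110 RPKM in 2R; it fell by 2.27 ± 0.31 (adjusted p = 1.74e-04). NDB4, an alternative NAD(P)H dehydrogenase of mitochondria, was at 3.99, 3.00 and 2.82 RPKM in 2NS and 0, 0.213 and 0.319 RPKM in 2HS and fell by 1.80 ± 0.22 (adjusted p = 7.62e-05). Of 11 tested genes of alternative respiration and retrograde signalling 4 fell and none rose. Over all tested genes 12.5% were called lower and 12.6% higher. Leaving out each library in turn gave 3 lower in this list, except 4 without the 2HS library of 12.4 M reads. CCA1, a morning clock factor, was at 14.3, 18.5 and 18.9 RPKM in 2NS and 6.14, 5.52 and 8.91 RPKM in 2HS and fell by 1.17 ± 0.19 (adjusted p = 0.0012), LHY was 1.41 lower in the means, and PRR5, an evening-phased repressor, rose by 1.28 ± 0.20 (adjusted p = 5.74e-04). Of 11 tested clock genes 4 were called higher, PRR5, AT5G52660, BOA and ELF4, and 2 lower, CCA1 and CHE. The calls of ELF4, BOA and CHE were lost without 5, 3 and 3 of the 6 libraries in turn (adjusted p up to 0.168, 0.0741 and 0.0671). In nitrogen and sulfur use NIA1, a nitrate reductase, went from 520.3 to 1221 RPKM and NIR1, nitrite reductase, from 632.4 to 278.5 RPKM in the means, and APR2, of sulfate assimilation, fell by 1.30 ± 0.16 (adjusted p = 1.72e-04). Among 17 aquaporins 14 were below 0, and PIP2;4 fell by 0.97 ± 0.17 (adjusted p = 0.0012). SAD6, a stearoyl-ACP desaturase, was 2.28 higher in the means, the only one of 13 oxygen-requiring sterol and lipid genes that was 2-fold apart.

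**Figure D3:**
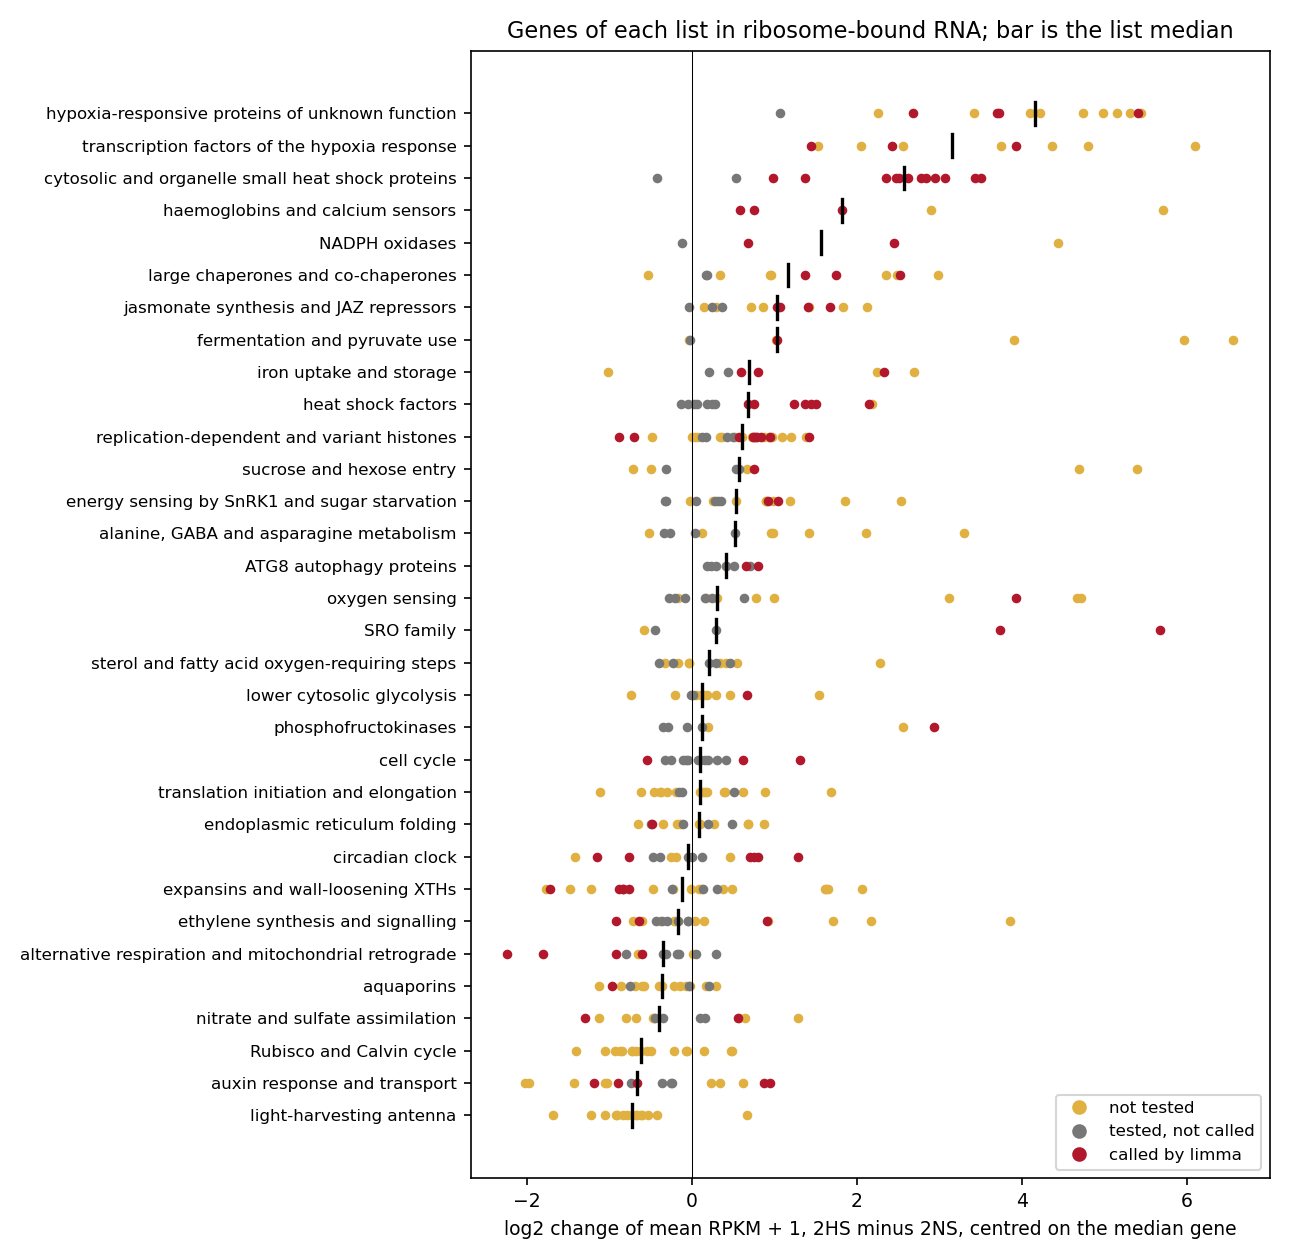
Log2 change between the TRAP means of 2HS and 2NS (x axis) for each gene of 32 lists (rows), with the list median as a black bar. Hypoxia-responsive proteins of unknown function have the highest median, 4.16, and the light-harvesting antenna the lowest, -0.73, with none of its genes tested.

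To ask where ribosome-bound RNA changed differently from total polyadenylated RNA, the 2 changes were compared in 1 limma model. Of 8868 genes tested 9 (0.101%) had a higher change in TRAP and 1 (0.0113%) a lower one. Only 198 had an unadjusted p under 0.05, a smaller share than the 0.05 that unchanged genes alone would give. With libraries rescaled by their upper quartile 1947 had one. The small number of calls therefore does not show that the 2 changes were alike in the other genes. SRO4 rose by 5.67 in TRAP against 3.06 ± 0.40 in poly(A)+ RNA, a difference of 2.61 ± 0.49 (adjusted p = 4.39e-04). AT2G29870 and NAC036 differed by 2.37 ± 0.49 and 2.63 ± 0.55 (adjusted p = 0.00192 for both). Small heat shock proteins made up 4 of the 9. HSP23.6-MITO was at 0.334, 0.861 and 1.13 RPKM in TRAP of 2NS and 11.2, 6.49 and 10.8 RPKM in 2HS, while its change in poly(A)+ RNA was -0.03 ± 0.35, a difference of 2.65 ± 0.53 (adjusted p = 0.00192). HSP17.4, AT1G53540 and ATHSP22.0 differed by 2.5, 2.38 and 2.24 (adjusted p = 0.00707, 0.00192 and 0.014). The snoRNA genes AT1G74456 and AT1G09467 differed by 3.19 and 2.73 on few reads, and the TRAP libraries of AT1G09467 overlapped. COR15A, a cold-induced chloroplast protein, was at 3.56, 10.7 and 6.85 RPKM in TRAP of 2NS and 1.03, 0.470 and 1.66 RPKM in 2HS, with a change in poly(A)+ RNA of 0.31 ± 0.41, and differed by -2.16 ± 0.51 (adjusted p = 0.0244). When each of the 12 libraries was left out in turn, SRO4 and AT1G74456 kept their calls throughout. The call was lost without 2 libraries for AT2G29870 and NAC036 (adjusted p up to 0.0839 and 0.114), without 3 for HSP23.6-MITO (0.0942), 4 for AT1G53540 and AT1G09467 (0.352 and 1), 7 for HSP17.4 (0.26), 8 for COR15A (0.462) and 9 for ATHSP22.0 (0.628).

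The number of such genes depended on scale. In TRAP RNA the RPKM of protein-coding genes summed to 476130.5 in 2NS and 480724.8 in 2HS, but in poly(A)+ RNA to only 131545.9 and 182458.2, so adding 1 RPKM compresses changes more in the latter. With libraries rescaled by their upper quartile 247 genes were called higher and 141 lower, and with both assays brought to a common scale as well 36 and 19; of the 10 genes 8 and 3 kept their call. On the common scale the difference was 1.38 for SRO4, 1.13 for AT2G29870 and 1.47 for ATHSP22.0, each over 1.5 times smaller, and of these SRO4 passed (adjusted p = 0.0222, beside 0.0802 and 0.257). Against nuclear RNA 0 of 11372 genes passed limma's test, with 278 at an unadjusted p under 0.05. That is a smaller share than the 0.05 that unchanged genes alone would give. The absence of calls therefore does not show that the 2 changes were alike. After rescaling 11 genes were called and 1142 had an unadjusted p under 0.05.

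**Figure D4:**
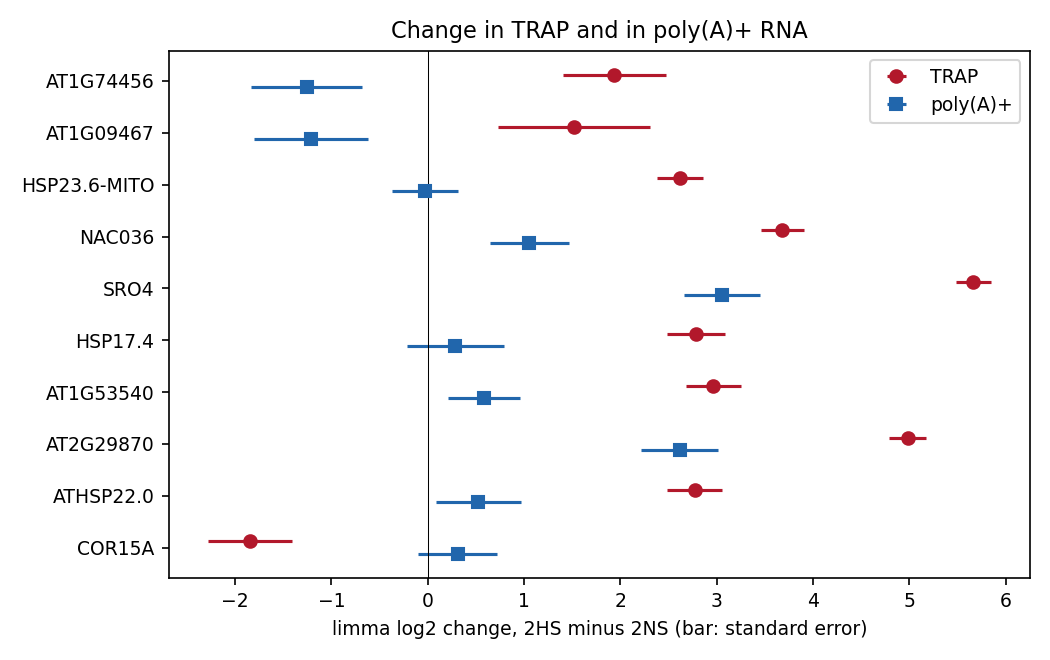
limma's log2 change with its standard error (x axis) for the 10 genes (rows) whose change differed between TRAP RNA (circles) and poly(A)+ RNA (squares). COR15A is the only gene with its TRAP change below that in poly(A)+ RNA; SRO4 lies at 5.67 against 3.06.

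Nuclear RNA, poly(A)+ RNA and chromatin at the same genes were measured in other samples. Medians below are over genes in the authors' means and carry no test. Of the 575 genes called at least 2-fold higher in TRAP, 47.1% were at least 2-fold higher in nuclear RNA, beside 8.65% of all 12926 tested genes, and 31.3% in poly(A)+ RNA, beside 1.56%. Elongating polymerase (Ser2P) was at a median of 0.51, H3K9ac, an acetylation of active promoters, at 0.43 and the histone variant H2A.Z at -0.35, beside 0.00, 0.00 and -0.02 over all tested genes. H3K14ac, H3K4me3 and H3K27me3 lay at 0.01, 0.07 and -0.15. The 316 genes called at least 2-fold lower had medians of -0.58 in nuclear RNA, -0.60 in poly(A)+ RNA, -0.11 in Ser2P, -0.26 in H3K9ac, -0.15 in H3K14ac and 0.02 in H2A.Z. Over the 78 genes at least 8-fold higher in the TRAP means the medians were 3.24 in nuclear RNA, 2.90 in poly(A)+ RNA, 1.69 in Ser2P, 0.90 in H3K9ac and -0.70 in H2A.Z, and 0.21, -0.09 and -0.13 in H3K4me3, H3K14ac and H3K27me3. The chromatin assays used Col-0 seedlings, and H2A.Z a line with tagged HTA11.

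**Figure D5:**
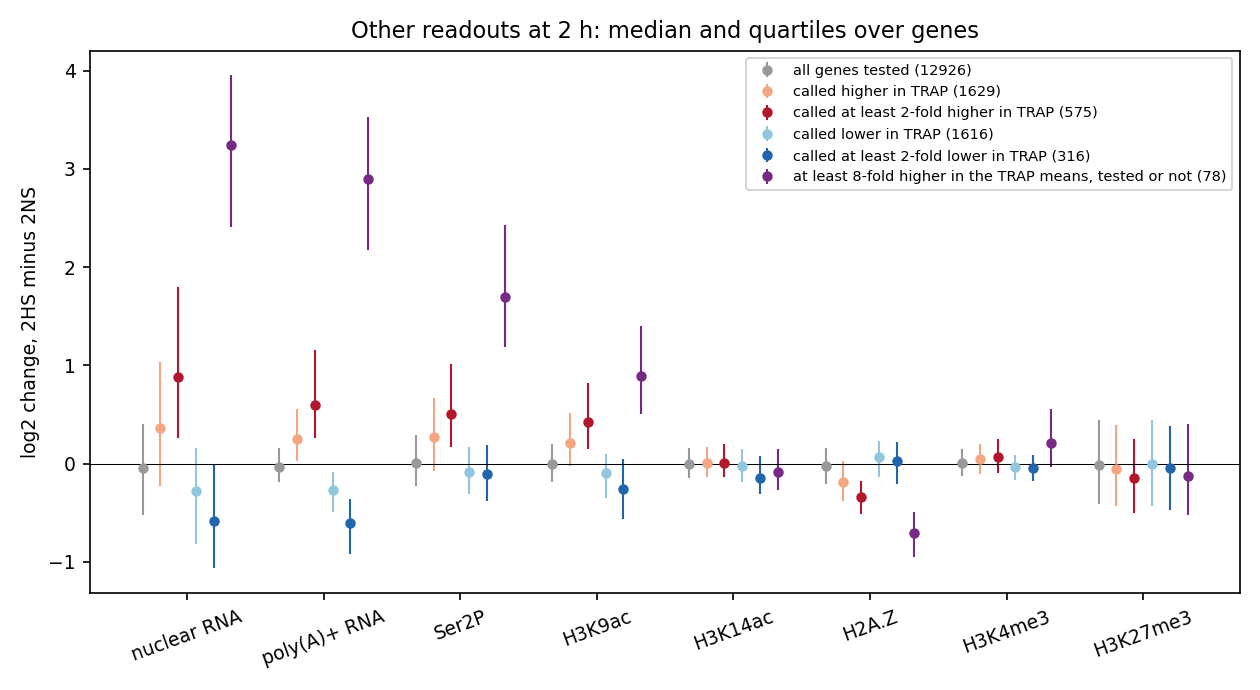
Median (points) and quartiles (bars) of the log2 change between 2HS and 2NS in 8 other readouts (x axis), over genes grouped by their change in TRAP RNA. Medians of the rising groups lie above those of all tested genes in nuclear RNA, poly(A)+ RNA, Ser2P and H3K9ac and below them in H2A.Z.

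Peaks of HRE2, mapped by the authors in hypoxic seedlings of a line with p35S:C2A HRE2-HA, lay within 1000 bases of the start site of 43.6% of the 78 genes and of 14.7% of all 16190. The share was 21.2% in the genes called at least 2-fold higher and 24.1% in those called at least 2-fold lower, beside 13.2% of all tested, so genes of both directions exceeded it. In TAIR10 coordinates, as the peak list gives them, peaks lay 117 bases before the start of ADH1 (chromosome 1, 28975061 to 28975216), 58 before that of SUS4 (chromosome 3, 15184086 to 15184241), 286 before that of LBD41 (chromosome 3, 538335 to 538490, with another peak inside the gene) and 458 before that of SRO4 (chromosome 3, 17592023 to 17592178). PDC1 had no listed peak in this window.

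Genes that were higher or lower were shorter at the median than all genes. The median gene span was 1902 bases in the 971 genes at least 2-fold higher, 1933 in the 411 lower and 2423 in all 16190, and the Spearman correlation of span with the change across genes was -0.02 (n = 16190 genes, which share libraries). Of 952 coding genes at least 2-fold higher, 14.9% had an adjacent coding gene that was also at least 2-fold higher, beside 7.18% of all 15992 coding genes. The only adjacent pair with both genes at least 8-fold higher was AT2G15880 and MEE14 (3.42 and 3.84). Strandedness is not given, so reads of overlapping neighbours cannot be told apart. At the level filter, AT5G64910 lay just inside with a mean of 1.0001 RPKM and a change of 0.39, and AT1G67620 just outside with 0.9996 RPKM and 0.01.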

How the data were processed

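The authors deposited RPKM as 1 mean per group over 3 libraries, per the file headers. The submitters' processing notes name Bowtie2, TopHat2, HOMER and the TAIR10 build, with roles and versions not given in the sources used here. HRE2 peaks came as positions with distances to start sites, per the file headers. A mean multiplied by its RefSeq gene span (TAIR10.1) is a sum of whole reads over library totals, and reads per library were recovered from it; in the TRAP columns 99.994% of checkable genes had a whole-read solution. limma 3.58.1 (R 4.3.3, trend) was fitted to log2(RPKM + 1), the groups of each assay sharing a single fit; 35 genes unresolved in 2R were fitted without it. Named genes were all members of 5 lists, up to 6 called or 2-fold members of each other list, the 12 largest changes each way in the means and in limma, and the largest differences between assays; further examples were chosen after their values were seen. Members, lists and families were chosen with earlier results of these data known. Scripts were tested on simulated data. Alternatives covered the pseudocount, level filter, centring, gene type, groups fitted, library scale and each library left out. Promoter and protein sequences were not analysed here.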

Additional observations from a re-analysis of the deposited data

Results flagged for a closer look

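In 10 genes the test of the difference between assays found that the change from 2NS to 2HS differed between TRAP and poly(A)+ RNA, which came from different lines. On the log2 scale the difference, TRAP minus poly(A)+, was 3.19 for AT1G74456, 2.73 for AT1G09467, 2.65 for HSP23.6-MITO, 2.63 for NAC036, 2.61 for SRO4, 2.5 for HSP17.4, 2.38 for AT1G53540, 2.37 for AT2G29870, 2.24 for ATHSP22.0 and -2.16 for COR15A. After rescaling by the upper quartile AT1G09467 and AT1G74456 did not pass (adjusted p = 0.0797 and 0.0613), and with both assays on a common scale SRO4, HSP23.6-MITO and COR15A passed (adjusted p = 0.0222, 0.0196 and 0.0455). On the common scale the differences of SRO4, AT2G29870 and ATHSP22.0 were smaller by over 1.5 times, at 1.38, 1.13 and 1.47.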

How the results depend on the processing

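No paired analysis was possible because the recovered libraries carry no replicate number. The counts in the authors' means stayed within 1.5 times of the main ones under every alternative except a filter of 5 RPKM, which left 273 genes lower. That filter left 1019 genes called higher and 1062 lower by limma. Leaving out 1 library gave 1171 to 1832 genes called higher and 986 to 1700 lower; of 198 called genes examined 164 kept their call without any 1 library, and none changed sign. TRAP minus poly(A)+ gave 9 higher and 1 lower; it gave 17 higher with a pseudocount of 2 RPKM, 0 lower with 0.5 RPKM, 29 and 2 with any value above 0, 4 and 0 at 5 RPKM, 14 higher with only the compared groups, 247 and 141 rescaled, and 36 and 19 on a common scale, an alternative chosen after seeing the data. Leaving out 1 library gave 3 to 9 higher and 0 to 1 lower. Against nuclear RNA, where limma called none, there was 1 higher with any value above 0, 1 higher and 2 lower with only the compared groups, 6 and 5 rescaled, 3 and 5 on a common scale, and 0 to 1 each way without 1 library. These causes were not tested. Shallow libraries limit genes near 1 RPKM, and the abundant genes have no error at all.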
